A study of Camelina sativa with 41 samples.

Results

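The genes described here are 5 transcription factors of the oilseed Camelina sativa: Csa04g012470, Csa19g036630, Csa02g073390, Csa04g023980 and Csa06g051300. They were chosen by their measured course in developing seeds, as factors whose counts climbed from near 0 in each of the steps between the sampled ages, out of 22 factors that the labels name and 89418 genes in the count table. Seeds of Suneson plants, a cultivar, labelled WT and with no treatment named, were taken 5, 8 and 11 days after flowering (DPA, days post-anthesis), with 3 biological replicates per age and messenger RNA read by sequencing. The labels' protocols speak of harvested seed pods and of RNA from fresh seed, so each library is a mixture of all tissues of the seed, and fewer cells of a type and less RNA per cell cannot be told apart. The same factors, fused to a Halo tag and made outside the plant, were mixed with amplified leaf DNA of the same cultivar, and the bound fragments were sequenced (DAP-seq); leaves of 6 plants were pooled, per the labels' protocols.

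Transcription factors bind short DNA sequences and raise or lower the transcription of nearby genes. In seeds of the mustard family, early growth of the embryo and endosperm gives way to filling, when oil and storage protein accumulate, and in Arabidopsis a small network of factors directs that change. The series title gives the control of lipid metabolism as its subject. Neither the files nor the reference table pairs a gene ID with a name: 0 of the table's 98741 reference genes matched an ID. Families and roles of the 5 factors are therefore not given, no sequence of them is shown, and the tissue label could not be checked against marker genes.

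Libraries held 15659011 counts (5 DPA replicate 1, a single run) to 46863553, so that 3 counts, used here as a floor, stand for 0.192 CPM (counts scaled to the same total in every library) in the shallowest library and for 0.0640 to 0.0784 CPM in the other 8. All 5 factors passed the filter on low counts. Because the rise itself chose them, their course is given as a description, without a test.

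Csa04g012470 was the most abundant of the 5 at the later ages. It had 0.192, 0.153 and 0.363 CPM in the 5 DPA libraries (3, 6 and 16 counts), 7.97, 6.79 and 10.2 CPM at 8 DPA, and 70.6, 45.2 and 42.4 CPM at 11 DPA. The ages did not overlap. Over pooled counts the level at 8 DPA was 32.7 times that at 5 DPA (95% counting interval 22.0 to 50.7), and 50.3 times without 5 DPA replicate 3, the library with most of the early counts. The level at 11 DPA was 6.45 times that at 8 DPA (6.04 to 6.90). The fitted log2 changes were 4.99 (SE 0.39) and 2.75 (SE 0.25), so the first step was the larger, by 2.23 (SE 0.55).

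Csa19g036630 moved mainly in the second step. The 5 DPA libraries had 0.319, 0.255 and 0.431 CPM (5, 10 and 19 counts), the 8 DPA libraries 1.88, 1.40 and 3.03 CPM, and the 11 DPA libraries 47.9, 24.4 and 22.1 CPM, without overlap between ages. Its 8 DPA level was 6.03 times the 5 DPA level (4.20 to 8.90) and its 11 DPA level 15.4 times the 8 DPA level (13.6 to 17.6). The log2 changes were 2.55 (SE 0.55) and 4.0 (SE 0.38), a difference of 1.45 with an SE of 0.84, so the order of the 2 steps is less certain than for Csa04g012470. No single library moved either ratio by over 1.5 times. The series' design text states that the DAP-seq profile of this factor correlated highly with that of the Halo tag alone, and its sites were not analysed here.

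Csa02g073390 was next to silent at 5 DPA. The 5 DPA libraries held 0, 0 and 1 count, fewer than the floor of 3 even together. The 8 DPA libraries held 31, 40 and 47 counts (0.799, 0.906 and 1.23 CPM) and the 11 DPA libraries 572, 205 and 217 (12.2, 4.47 and 5.24 CPM). With 1 early count the ratio of 8 to 5 DPA, 96.4, has a counting interval of 16.97 to 3840. It moved to 58.2 when 5 DPA replicate 2 was left out. Leaving out replicate 3 removes the only early count, and 8 DPA was then at least 17.8-fold higher than the floor of 3 counts over the group. The ratio of 11 to 8 DPA was 7.61 (6.28 to 9.29), or 4.96 without 11 DPA replicate 1. That later step is thus the better measured one, with a log2 change of 2.99 (SE 0.42).

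Csa04g023980 and Csa06g051300 were the scarcest of the 5 at 8 and 11 DPA and stayed under 4 CPM throughout. At 5 DPA Csa02g073390, with its 1 count, was scarcer still. Csa04g023980 had 1, 1 and 0 counts at 5 DPA, 9, 8 and 18 at 8 DPA (0.232, 0.181 and 0.470 CPM), and 151, 66 and 76 at 11 DPA (3.22, 1.44 and 1.83 CPM). Csa06g051300 had 1, 0 and 6 counts at 5 DPA (6 of the 7 in replicate 3), 5, 17 and 22 at 8 DPA (0.129, 0.385 and 0.575 CPM), and 151, 111 and 108 at 11 DPA (3.22, 2.42 and 2.61 CPM). The ages of Csa04g023980 did not overlap, whereas the lowest 8 DPA value of Csa06g051300, 0.129 CPM in replicate 1, lay below its highest 5 DPA value, 0.136 CPM in replicate 3.

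The first step of both scarce factors therefore rests on few reads. For Csa04g023980 the ratio of 8 to 5 DPA was 14.3 (3.67 to 122.7), with 24.1 without 5 DPA replicate 1, 17.3 without replicate 2 and 7.93 without replicate 3. For Csa06g051300 it was 5.14 (2.29 to 13.5), with 3.10 without 5 DPA replicate 2 and 19.9 without replicate 3 (1 count left; interval 3.40 to 805). Their second steps were alike in size, 7.56 (5.32 to 11.1) for Csa04g023980 and 7.60 (5.55 to 10.6) for Csa06g051300, and no single library moved either by over 1.5 times.

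**Figure D1:**
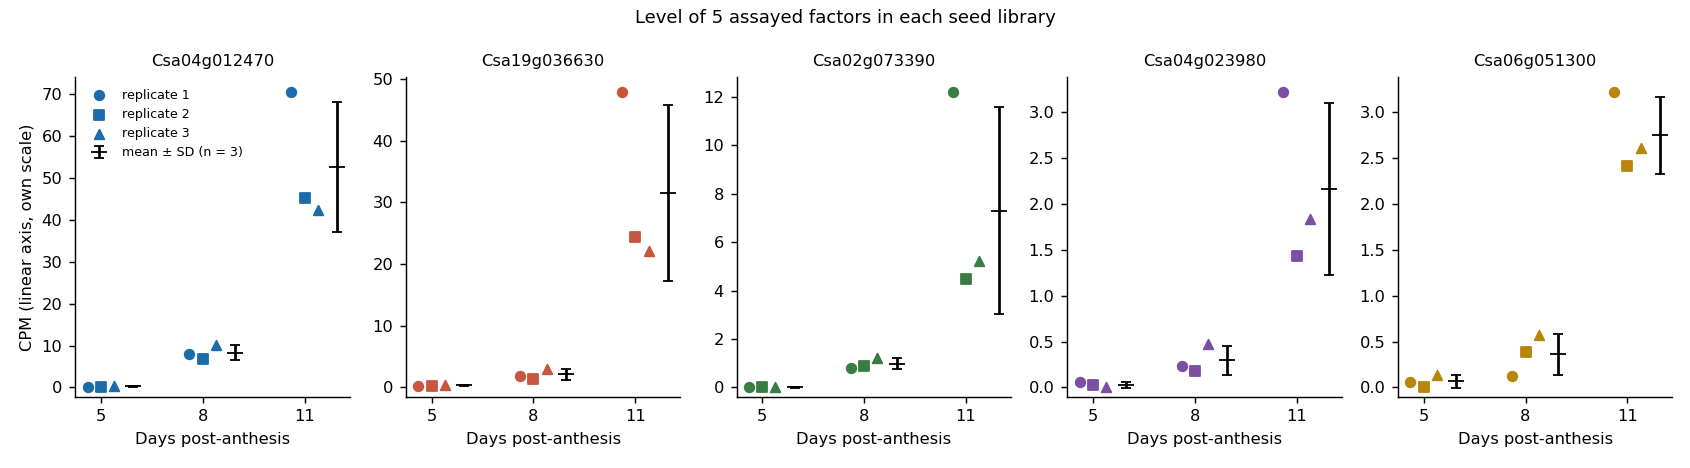
Level of each of the 5 factors in every seed library, in CPM on a linear axis with its own scale per panel, by age in days post-anthesis. Symbols are replicates and bars the mean ± SD of 3 libraries; Csa04g012470 reaches 42.4 to 70.6 CPM at 11 DPA and Csa04g023980 1.44 to 3.22 CPM, and replicate 1 is the highest 11 DPA library in all 5 panels.

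Despite unlike levels, the factors other than Csa19g036630 stood at a similar share of their 11 DPA CPM by 8 DPA. The mean CPM at 8 DPA was 15.8% of that at 11 DPA for Csa04g012470, 13.4% for Csa02g073390, 13.6% for Csa04g023980 and 13.2% for Csa06g051300. Csa19g036630 was lower, at 6.69%. The share of Csa02g073390 is the one that moved by over 1.5 times when a library was left out, since its ratio of 11 to 8 DPA was 4.96 without 11 DPA replicate 1. The shares of Csa04g023980 and Csa06g051300 are loosely measured too. Their ratios of 11 to 8 DPA had counting intervals of 5.32 to 11.1 and 5.55 to 10.6, and were 10.7 and 10.4 without 8 DPA replicate 3. On the log2 scale the part of the climb made by 8 DPA differed more. The fitted first step was 4.99 of 7.74 for Csa04g012470, 6.16 of 9.16 for Csa02g073390 and 3.58 of 6.55 for Csa04g023980. It was 2.55 of 6.56 for Csa19g036630 and 2.28 of 5.27 for Csa06g051300.

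Levels of different genes can be compared only per length. The deposited length has a median of 1917 bases over all genes, close to the 1935 bases of gene spans in the reference table, and the sources used here do not say whether it counts introns. Per kilobase of that length, Csa04g012470 averaged 10.8 ± 3.18, Csa19g036630 7.39 ± 3.35, Csa02g073390 5.45 ± 3.18, Csa06g051300 1.53 ± 0.234 and Csa04g023980 1.11 ± 0.478 CPM per kb at 11 DPA (SD, n = 3 libraries each). Between neighbours in this order only Csa02g073390 and Csa06g051300 were separated in all libraries, although each of the 3 libraries of 11 DPA, taken alone, gave the same order.

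The order was another one at the earlier ages. At 8 DPA, Csa04g012470 (1.71 CPM per kb ± 0.357) led, followed in every library by Csa02g073390 (0.730 ± 0.167) and Csa19g036630 (0.494 ± 0.196; SD, n = 3). At 5 DPA Csa19g036630 was first in every library, at 0.0786 CPM per kb ± 0.0209. Among all 63017 genes that passed the filter, ranked per kilobase by the mean of an age, Csa04g012470 stood above 2.73%, 41.8% and 87.5% of genes at 5, 8 and 11 DPA. Csa19g036630 stood above 4.01%, 18.2% and 81.1%, and Csa02g073390 above 0.695%, 24.2% and 74.3%. Csa04g023980 ended above 32.1% and Csa06g051300 above 39.4% of genes at 11 DPA, so these 2 remained in the lower part of the range.

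The choice of the 5 can be read against the rest of the table. All 5 were called higher at 8 than at 5 DPA, where 18.1% of the 63017 genes tested were (edgeR's quasi-likelihood test, Benjamini-Hochberg adjusted p under 0.05). All 5 were called higher at 11 than at 8 DPA, where 20.8% were, and at 11 than at 5 DPA, where 29.8% were. These calls rest on the same values as the choice and are no evidence of their own. The first-step call of Csa06g051300 was lost in 9 of 16 alternatives and that of Csa04g023980 in 1 of 16, so the label of a rise in both steps is least firm for Csa06g051300. The median log2 change of the 5 was 3.58, 2.99 and 6.56 for 8 versus 5, 11 versus 8 and 11 versus 5 DPA, beside -0.01, 0.00 and 0.00 over all genes tested.

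A course of this kind is uncommon in the table but not peculiar to the 5. Genes called higher in both steps made up 6.93% of those tested, or 4367 genes. Of these, 1099 were at or under the highest 5 DPA level of the 5 factors (0.335 CPM), and 703 of those were at or over their lowest 11 DPA level (2.16 CPM). These limits are in CPM and are not scaled to length, so the count depends on how long a gene is. The 703 genes, the 5 factors included, are 1.12% of the genes tested.

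The labels name 17 other factors. No seed library held a count of Csa01g013850 or Csa09g088620, and 15 were tested. Of the 15, 7 were called higher at 8 than 5 DPA, 6 at 11 than 8 DPA and 13 at 11 than 5 DPA. In the other direction 0 of the 15 were called lower, where 17.5%, 19.7% and 29.1% of all genes tested were (0 also by DESeq2). The median log2 changes of the 15 were 0.83, 0.86 and 2.14, and that these are below those of the 5 follows from the choice of the 5. The comparisons share libraries, so the counts are not independent of each other.

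Several factors lay just outside the choice. Csa11g015700 and Csa11g072230 were called higher in both steps. Csa11g015700 averaged 8.35, 16.6 and 32.5 CPM at 5, 8 and 11 DPA, and Csa11g072230 1.496, 2.71 and 6.37 CPM. Both thus began well above the 0.335 CPM of Csa19g036630, the highest of the 5 at 5 DPA, and their log2 changes per step lay between 0.83 and 1.31. Csa10g008930 also began near 0, with 0.0639, 0.178 and 0.0907 CPM at 5 DPA, and had 0.387, 0.226 and 0.261 CPM at 8 DPA and 5.25, 3.90 and 3.65 CPM at 11 DPA, without overlap between ages. Its second step had a log2 change of 3.95 (SE 0.31), but its first, 1.21 (SE 0.43), narrowly missed the threshold for a call (edgeR adjusted p = 0.0539). That first step lies beside the 2.28 (SE 0.78) of Csa06g051300, which was called at an adjusted p of 0.0472 by the same edgeR test. Csa17g034220 (means of 0.288, 1.12 and 1.77 CPM) and Csa13g011780 (0.244, 0.768 and 1.32 CPM) also began under 0.335 CPM and had higher means at each later age. For Csa17g034220 the first step was called and the second was not (edgeR adjusted p = 0.177), and for Csa13g011780 neither was (edgeR adjusted p = 0.0962 and 0.211).

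**Figure D2:**
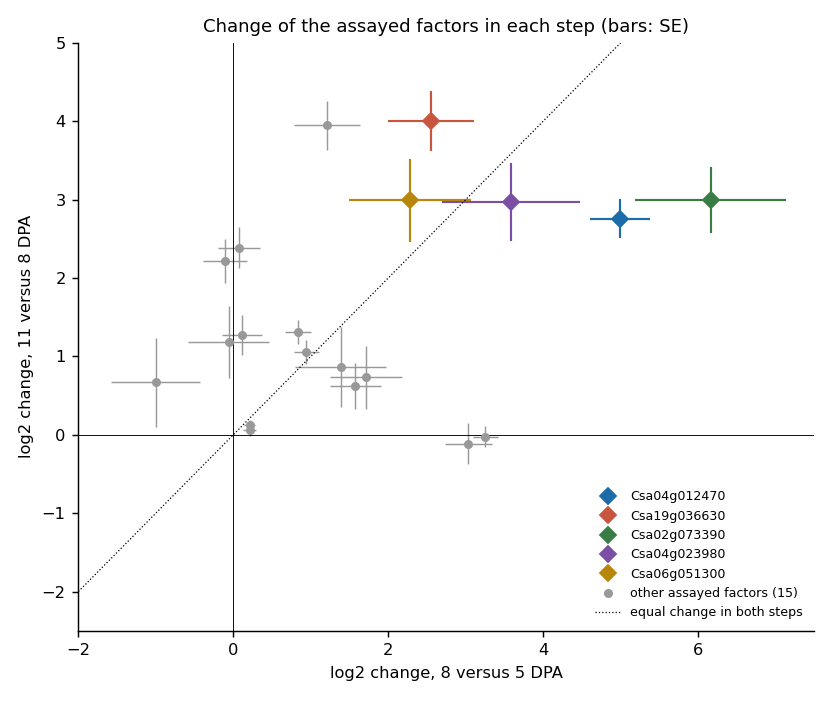
Fitted log2 change from 5 to 8 DPA (horizontal) against that from 8 to 11 DPA (vertical) for the 5 factors (coloured diamonds) and 15 other assayed factors (grey points); bars are standard errors and the dotted line marks equal steps. The 5 factors lie at 2.28 or more on the horizontal axis and at 2.75 or more on the vertical axis, with Csa04g012470 and Csa02g073390 farthest right.

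Within an age, the factors were high in the same libraries. At 8 DPA replicate 3 was the highest library for 5 of the 5, and at 11 DPA replicate 1 was. At 5 DPA replicate 3 was highest for 4 of them and replicate 1 for Csa04g023980, on counts of 0 to 19. The rest of the table shares part of this: of the 4367 genes higher in both steps, 77.0% were highest in replicate 3 at 8 DPA and 41.4% in replicate 1 at 11 DPA, against 39.5% and 27.0% of all genes tested. What sets these libraries apart was not tested.

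The excess in 11 DPA replicate 1 was unequal among the factors. Its CPM was 2.52 times the mean of replicates 2 and 3 for Csa02g073390 (12.2 against 4.85 CPM), 2.06 times for Csa19g036630 (47.9 against 23.3 CPM), 1.97 times for Csa04g023980 and 1.61 times for Csa04g012470 (70.6 against 43.8 CPM). For Csa06g051300 it was 1.28 times. The median over the genes higher in both steps was 1.012 times and over all genes tested 0.939 times, so the 5 factors lay above both. Among the other assayed factors, Csa08g011090 (1.91 times), Csa13g021450 (1.87 times), Csa05g079950 (1.83 times), Csa19g005080 (1.43 times) and Csa10g008930 (1.39 times) lay above the value of Csa06g051300, and Csa11g015700 lay level with it (1.28 times).

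At 11 DPA replicate 1 was the highest library for all 5 factors in the first run and in the second run alike. At 8 DPA replicate 3 was the highest for all 5 in the second run and for 4 of the 5 in the first, where Csa02g073390 was highest in replicate 1 (0.969 CPM, with 0.853 CPM in replicate 3). In 11 DPA replicate 1, Csa02g073390 had 12.6 CPM in the first run and 11.9 CPM in the second, and Csa19g036630 had 45.4 and 49.8 CPM. Without both 8 DPA replicate 3 and 11 DPA replicate 1, 4, 5 and 5 of the 5 factors were called higher at 8 than 5, 11 than 8 and 11 than 5 DPA, and Csa06g051300 was the one not called in the first step. Over all genes, 9606, 9787 and 17554 of the 63946 tested were called higher in that setting. The calls of the 5 rest on the values that chose them and are no evidence of their own.

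**Figure D3:**
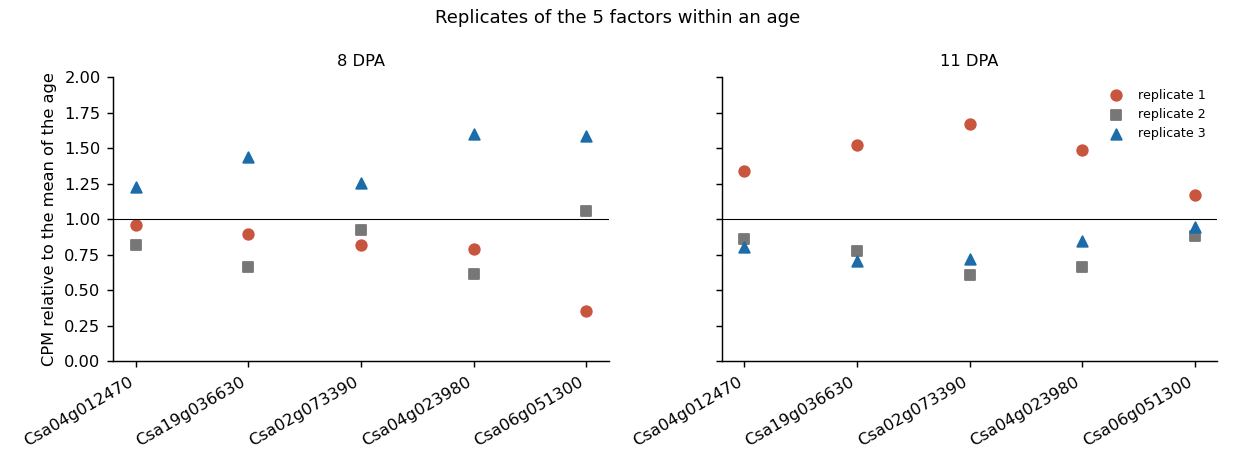
CPM of each factor in each 8 DPA (left) and 11 DPA (right) library divided by the mean of that age, with a symbol and colour per replicate; the line marks the mean. Replicate 3 is highest for all 5 factors at 8 DPA and replicate 1 for all 5 at 11 DPA.

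Likeness of course was measured as the root mean square difference over the 9 libraries between log2(CPM + 0.2) values, each gene centred on its own mean, so that 0 is an identical course. Csa04g023980 and Csa06g051300 were the closest of the 5 to each other, at 0.38, followed by Csa19g036630 and Csa02g073390 at 0.54. A short distance by this measure does not mean like steps. Csa19g036630 had fitted log2 changes of 2.55 (SE 0.55) and then 4.0 (SE 0.38). Those of Csa02g073390 were 6.16 (SE 0.97) and then 2.99 (SE 0.42). Csa04g012470 stood apart: its nearest fellow was Csa02g073390 at 0.90, and it lay at 1.64 from Csa04g023980. At low counts the added 0.2 CPM flattens a course, which touches Csa02g073390, Csa04g023980 and Csa06g051300 most. Those held 1, 2 and 7 counts at 5 DPA, and their distances depend on the amount added.

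Neighbours were sought among the 52229 other genes that passed the filter and averaged at least 1 CPM. Within 0.5 on this log2 scale lay 49 genes for Csa04g012470, 56 for Csa19g036630, 155 for Csa02g073390, 220 for Csa06g051300 and 432 for Csa04g023980. The genes near Csa06g051300 were mostly near Csa04g023980 too: 200 were shared, which is 90.9% of the list of Csa06g051300 and 46.3% of that of Csa04g023980. Csa19g036630 and Csa02g073390 shared 29 genes, or 51.8% and 18.7% of their lists. Csa04g012470 shared 0 with any of the other 4 lists. These overlaps largely follow from the distances between the factors given above and are no separate result. Some lengths rest on 1 library: without 11 DPA replicate 1 they were 85 genes for Csa19g036630, 376 for Csa02g073390 and 772 for Csa04g023980, without 5 DPA replicate 2 75 for Csa04g012470 and 387 for Csa06g051300, and without 8 DPA replicate 1 453 for Csa06g051300. The added amount moved the lists of the scarcer factors too. With 0.1 and 0.5 CPM in place of 0.2, they held 86 and 340 genes for Csa02g073390, 181 and 1596 for Csa04g023980, and 38 and 1112 for Csa06g051300, whose list is thus the shortest of the 5 at 0.1 CPM. The first run alone gave 103 genes for Csa02g073390 and 221 for Csa04g023980, and the list of Csa06g051300 was also shorter by over 1.5 times.

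Some assayed factors outside the 5 were nearer to a factor than its fellows were. Csa10g008930 was the nearest of them to Csa19g036630 (0.91), to Csa02g073390 (0.83), to Csa04g023980 (0.51) and to Csa06g051300 (0.57). It was nearer to Csa19g036630 than were Csa04g012470 (0.93), Csa06g051300 (1.014) and Csa04g023980 (1.06). For Csa04g023980, Csa13g021450 came next at 0.52, and Csa08g011090 (0.63), Csa11g072230 (0.63) and Csa11g015700 (0.68) were also nearer than Csa02g073390 (0.78). By this measure the 5 are not each other's nearest assayed factors throughout. Every distance to a factor outside the 5 was above 0.5, and 369 genes were nearer to Csa19g036630 than Csa10g008930 was.

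The genes most like the mean course of the 5 were Csa01g024080 and Csa08g002280, both 0.17 from it. Of the 5 factors themselves, Csa02g073390 (0.20) and Csa19g036630 (0.48) lay within 0.5 of that mean. Csa06g051300 (0.67), Csa04g023980 (0.70) and Csa04g012470 (0.98) lay farther off, and Csa10g008930, outside the 5, lay at 0.72. Likeness to the mean course is therefore not likeness to each of the 5. Over the ages in order, Csa01g024080 averaged 0.359 ± 0.0262, 2.23 ± 0.734 and 15.9 ± 3.26 CPM (SD, n = 3). Csa08g002280 averaged 0.558 CPM ± 0.0425, 2.76 CPM ± 0.922 and 20.7 CPM ± 7.34. Both were highest in 8 DPA replicate 3 and in 11 DPA replicate 1, which their choice by likeness over all 9 libraries favours, since the mean course is highest there.

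Genes with the mirror image of that course were also present, with 321 genes within 0.5 of it. The nearest were Csa14g031100 (0.12) and Csa20g012650 (0.13). Over the ages in order, Csa14g031100 averaged 249.8 ± 33.3, 53.7 ± 9.51 and 9.20 ± 2.72 CPM, and Csa20g012650 averaged 16.6 ± 2.58, 3.57 ± 0.974 and 0.467 ± 0.223 CPM (SD, n = 3). Both were lowest in 8 DPA replicate 3 and in 11 DPA replicate 1, which their choice favours likewise. Which genes come first depends on the small amount added: with 0.1 or 0.5 CPM in place of 0.2, none of these 4 was among the nearest 2. Leaving out 5 DPA replicate 2 also replaced all 4, and TMM-scaled CPM replaced both mirror genes.

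**Figure D4:**
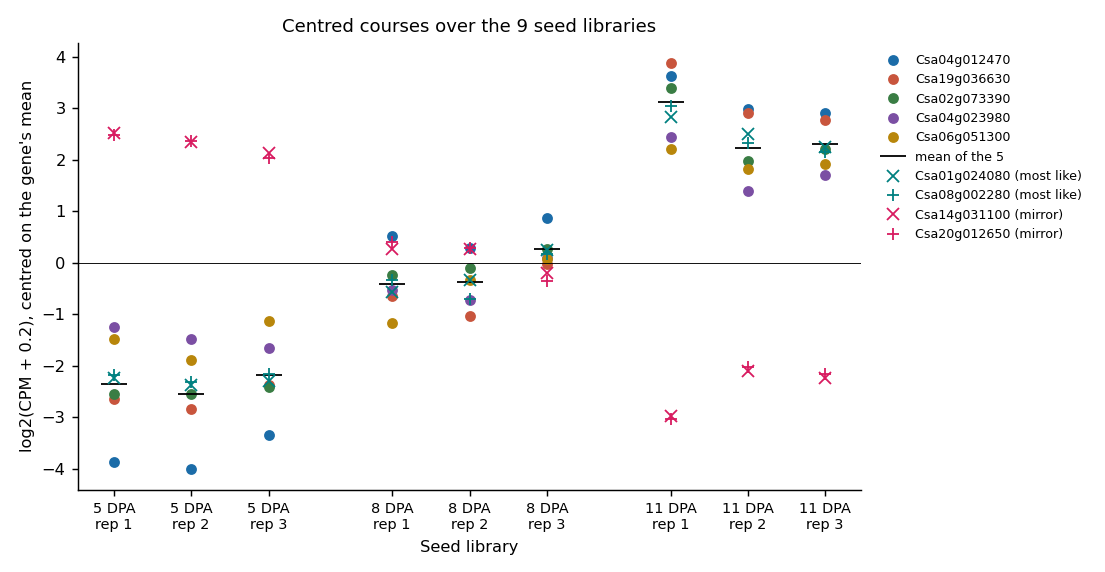
log2(CPM + 0.2) centred on each gene's mean, in each of the 9 seed libraries: the 5 factors (filled circles), their mean (black dashes), the 2 genes most like that mean (teal) and the 2 most like its mirror image (pink). On this scale Csa04g012470 spans the widest range of the 5 factors and Csa04g023980 and Csa06g051300 the narrowest. The added 0.2 CPM shortens the span of factors near 0 at 5 DPA. The fitted log2 change from 5 to 11 DPA was 9.16 (SE 0.79) for Csa02g073390 and 7.74 (SE 0.38) for Csa04g012470.

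Peak lists were analysed for 4 of the 5 factors; these were not used to choose them. A peak is a place where bound fragments pile up, and its summit is the centre the authors give. Csa02g073390 had 129638 peaks, Csa04g012470 117085, Csa06g051300 47458 and Csa04g023980 25141, each on all 20 chromosomes. Each factor has a single list and its sequencing depth is unknown, so lengths of lists were not tested against each other.

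Peaks were divided among the chromosomes much as gene IDs are, and their position relative to genes within a chromosome was not measured. Chromosome 11 held the most peaks in each of the 4 lists, 8.39% to 8.55% of them. Relative to the share of chromosome-numbered gene IDs, the share of peaks ran from 0.876 times (Csa04g012470, chromosome 3) to 1.16 times (Csa04g023980, chromosome 12). Summits lay closer together in the longer lists: the median distance to the nearest summit of the same list was 1168 bp for Csa02g073390, 1299 bp for Csa04g012470, 3182 bp for Csa06g051300 and 6736 bp for Csa04g023980. A summit of the same list lay within 1 kb for 45.1% of the Csa02g073390 summits and for 14.8% of the Csa04g023980 summits.

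The authors' signal per peak, which has no stated unit, had medians of 59.3 for Csa04g012470, 65.9 for Csa02g073390, 55.9 for Csa04g023980 and 65.0 for Csa06g051300. Its spread differed more: the 95th percentile was 257 for Csa04g023980 and 122.9 for Csa02g073390, while the 5th percentiles were 26.8 and 45.0. The peak of highest signal for Csa04g012470 was chr2:5830836-5831036 (835.3), that for Csa02g073390 was chr20:19552141-19552341 (489), and that for Csa04g023980 was chr9:31866741-31866941 (718). For Csa06g051300 it was chr19:23398220-23398420 (950), the only one of the 4 with a summit of another list within 100 bp (3 lists in all). The sources used here name no genome build for these positions, and no gene annotation was set against them.

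Shared summits of the 4 factors were counted without a level expected by chance, and their share depends on list length and window. Within 100 bp, Csa06g051300 shared 10.5% of its summits with Csa02g073390, which is 3.82% of the list of Csa02g073390 counted from its side, and 7.78% with Csa04g012470, or 3.18% of that list. Csa04g012470 shared 6.03% of its summits with Csa02g073390, or 5.37% of the list of Csa02g073390. Csa04g023980 shared 7.98% with Csa02g073390 (1.54% of that list) and 4.53% with Csa04g012470 (0.980%). Csa04g023980 and Csa06g051300, the shortest lists, shared the fewest summits by number, 387 and 385 counted from each side, or 1.54% and 0.811% of their lists. Only 2 summits of Csa04g012470 had a summit of each of the other 3 lists within 100 bp.

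Most summits of each factor had no near summit in another list, again without a level expected by chance. No summit of any of the other 19 lists lay within 100 bp for 77.1% of the summits of Csa04g012470, 72.8% of Csa02g073390, 66.4% of Csa04g023980 and 63.3% of Csa06g051300. Median distances between shared summits of these 4 factors were 46 to 55 bp. By contrast, shared summits of Csa04g023980 and Csa09g088620 were a median of 4 bp apart, and made up 10.1% of the list of Csa04g023980. The shares followed the window: Csa06g051300 and Csa02g073390 shared 5.21% of the summits of Csa06g051300 within 50 bp and 19.6% within 200 bp.

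**Figure D5:**
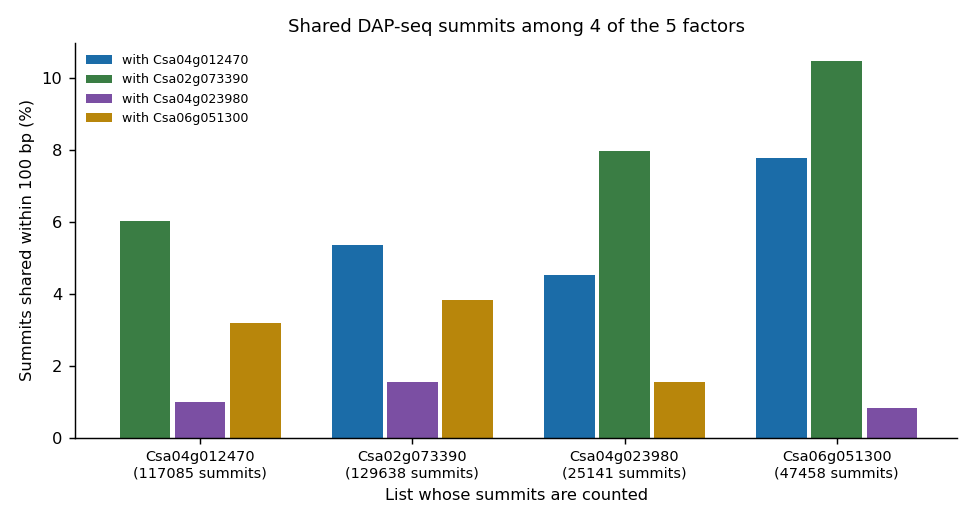
Percent of the summits of each list (horizontal axis, with its number of summits) that lie within 100 bp of a summit of another of the 4 factors, with a colour per other factor. Shares with Csa02g073390, the longest list, are the largest in each of the 3 other lists. Csa04g023980 and Csa06g051300, the shortest lists, share 1.54% and 0.811% of their lists. That pair shares the fewest summits by number (387 and 385, not plotted), but by percent Csa04g012470 with Csa04g023980 (0.980%) is below the 1.54%.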

How the data were processed

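The authors deposited counts per gene as whole numbers, in a table with 1 column per sequencing run and a gene length. The RNA kit was stranded, per the labels' protocols. HISAT2 2.0.4, Bowtie2 2.3.4.1, Trimmomatic, FastQC and bcl2fastq 2.20.0 stand in the submitters' processing notes without roles. Not given in the sources used here are build, annotation, counting tool and whether strand was used. Copies of a gene in this hexaploid genome can be nearly identical, and their counts are uncertain where reads could be split between them. Peak lists, named as GEM events, give the authors' score, signal and −log10 of p and q (of q at least 2 in the 4 lists used); whether duplicates were pooled is not stated. Score, signal and −log10 values only describe or rank peaks within a list.

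Runs of a replicate were summed, except that the resequenced column of 5 DPA replicate 1, equal to that of replicate 2 for all 89418 genes, was left out. edgeR 4.0.16 (R 4.3.3; TMM, filterByExpr, quasi-likelihood test, 9 libraries in 1 fit with age alone) was run on all genes. Standard errors were taken as log2 change over square root of F. CPM use library totals; counting intervals are exact (95%, conditional binomial for ratios) and, like the floor of 3 counts, cover counting error only. Scripts were tested on simulated data. Peaks, likeness and figures used Python 3.11.15, NumPy 2.4.6, pandas 2.3.3, SciPy 1.17.1 and Matplotlib 3.10.9.

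The 5 members, the lists and the tests were chosen with earlier results of these data known. Named genes are the members, factors in the labels, and the 2 genes nearest to the members' mean course and the 2 nearest to its mirror image. Alternatives were DESeq2 1.42.0, its size factors, no filter, a fold threshold, a fit of 2 ages only, a replicate block, leaving out each replicate, the first run alone, runs as deposited, other added amounts, TMM-scaled CPM, other summit distances and the higher-scoring 50% of peaks. Leaving out both 8 DPA replicate 3 and 11 DPA replicate 1 was added after seeing the data.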

Additional observations from a re-analysis of the deposited data

How the results depend on the processing

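The second step and the whole span were called for all 5 factors under all 17 alternatives, and no log2 change reversed in either step. Because the rise chose the 5, these calls show only how a call depends on processing and are no evidence of their own. From 5 to 8 DPA, 5 of 5 factors were called with DESeq2, its size factors, no filter, the first run alone and runs as deposited, and 4 to 5 with single libraries left out. With only the 2 ages compared, 3 passed the filter and 3 were called. The call of Csa06g051300 was lost in 9 of 16 alternatives (adjusted p up to 0.156) and that of Csa04g023980 without 5 DPA replicate 3 (edgeR adjusted p = 0.0522). With a log2 change of at least 1 as well, the counts over all genes were 5312, 5620 and 9546 for 8 versus 5, 11 versus 8 and 11 versus 5 DPA, and 4 of the other factors were called in the first step; fewer genes pass by construction.

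Replicate numbers are shared between ages in the labels, but same-numbered libraries did not deviate together (r = -0.07 to 0.18 across genes), and not every library correlated best with its own number. With the replicate block, 4, 5 and 5 of the 5 factors were called, and Csa06g051300 was the one lost in the first step (edgeR adjusted p = 0.0658). Over all genes, 10718, 12250 and 18269 of the 63017 tested were called higher with the block.

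Counts of genes near a course moved by over 1.5 times with the added amount for Csa02g073390, Csa04g023980 and Csa06g051300 (38 to 1112 for the last), but not for Csa04g012470 (44 to 68) or Csa19g036630 (50 to 74), and, without 11 DPA replicate 1, to 376 for Csa02g073390 and 772 for Csa04g023980. Shares of summits fell at 50 bp and in the higher-scoring 50% of each list, and rose at 200 bp. The score is capped at 1000, and 61.3% to 86.3% of the peaks in each of the 4 lists stood at that cap. Equal scores were ordered by signal, so the 50% kept are capped peaks of highest signal. Lists cut in this way also hold fewer summits to share. Depth limits the 5 DPA levels of Csa02g073390, Csa04g023980 and Csa06g051300, which rest on 1, 2 and 7 counts.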
